A study of Mus musculus with 4 samples.

Results

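The genes described here are 8 collagen chains (Col1a1, Col1a2, Col3a1, Col4a1, Col4a2, Col6a1, Col6a2 and Col6a3) together with Dcn and Sparc, 10 of the 16403 gene IDs listed. They were found by symbol in the deposited tables, all 10 were listed in every library, and a gene missing from a table was set to 0. They were chosen by their FPKM in the untreated pair, several being low in the untreated knockout library, so that contrast is described below and not tested. The RNA came from peritoneal macrophages of C57BL/6 mice, elicited with 4% thioglycolate, collected after 4 days, left to adhere for 4 h and then kept in medium with 0.5% serum. Cells of wild-type (WT) mice or of mice labelled TIF1a-/- (KO) were either left untreated or stimulated with IL-4 at 20 ng/mL for 6 h, and each of the 4 groups is 1 library. TIF1a is another name for Trim24, a nuclear co-regulator with ubiquitin ligase activity, and the study asked how it bears on the response of macrophages to IL-4. Per the study's methods the KO mice were Trim24 flox/flox LysM-Cre, WT littermates served as controls, and whether those controls carried Cre is not stated. LysM-Cre acts in myeloid cells, so fibroblasts, mesothelial cells or vessel cells that stay in an adherent culture would keep Trim24.

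Collagens are proteins of 3 chains wound around each other. Types I and III form the fibrils of connective tissue and are made mainly by fibroblasts, type IV forms the sheet of basement membranes, and type VI forms beaded filaments near cells and is also made by macrophages. Dcn (decorin) is a small proteoglycan that binds collagen fibrils, and Sparc (osteonectin) is a secreted calcium-binding glycoprotein that binds collagen. The peritoneal cavity is lined by mesothelial cells over a layer of fibroblasts, and a lavage can carry over some of both.

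The libraries held 11026033 to 11250099 expected reads, and 3 reads, taken as the smallest detectable signal, corresponded to 0.267 to 0.272 CPM (reads scaled to a common library total). Trim24 itself stood at 2.55 FPKM in untreated WT and 1.48 in IL-4-treated WT against 0.06 in untreated KO and 0.14 in IL-4-treated KO, so the genotype labels were borne out in both pairs. The cells carried macrophage transcripts at high level: all 10 macrophage markers were above 1 FPKM, with Cd68, a lysosomal protein of macrophages, between 3005 and 3465 FPKM. With 1 library per group no difference has a replicate check. All intervals cover counting error only, and a test on reads compares the libraries, not the conditions.

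The 10 genes differed widely in level among themselves. By mean FPKM over the 4 libraries, which divides reads by transcript length, Sparc came first (16.7 FPKM), then Dcn (11.2), Col1a1 (9.89), Col1a2 (9.62), Col6a1 (8.61), Col6a2 (7.99) and Col3a1 (4.31). Col6a3 (0.498), Col4a1 (0.495) and Col4a2 (0.40) formed a low group under 1 FPKM in every library. Among all gene IDs Sparc ranked 3810th and Col4a2 11695th. The genes lie on GRCm38 at chr11:94936224-94953042 (Col1a1), chr6:4505618-4541543 (Col1a2), chr1:45311538-45349706 (Col3a1), chr8:11198423-11312889 (Col4a1), chr8:11312805-11449287 (Col4a2), chr10:76708792-76726044 (Col6a1), chr10:76595756-76623630 (Col6a2), chr1:90766860-90844001 (Col6a3), chr10:97479500-97518163 (Dcn) and chr11:55394159-55420080 (Sparc). Col4a1 and Col4a2 are read in opposite directions, from start sites 21 bases apart that lie where the spans of these genes overlap. Col6a1 and Col6a2 are neighbours on the same strand.

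Promoter sequence is shown for 2 fibrillar chains whose ratio to the wild-type differed in sign after IL-4, as given below. The windows are the 120 bases before the start site in RefSeq (GRCm38.p6), both on the plus strand, at chr6:4505498-4505617 for Col1a2 and chr1:45311418-45311537 for Col3a1. Capitals mark a CCAAT in the first, a motif bound by NF-Y, and a TATAAA in the second.
Col1a2: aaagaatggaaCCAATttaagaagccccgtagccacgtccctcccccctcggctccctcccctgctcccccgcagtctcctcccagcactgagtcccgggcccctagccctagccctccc
Col3a1: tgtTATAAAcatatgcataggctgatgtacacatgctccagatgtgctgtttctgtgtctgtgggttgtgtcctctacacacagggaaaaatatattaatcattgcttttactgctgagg
In the 250 bases before the start site, searched on both strands, CCAAT was found in 3 of the 8 genes with a window in the table (Col1a2 at position -109, Col4a1 at -145 and Col4a2 at -32) and in 33.9% of all 32841 windows. TATAAA was found in 1 of the 8 (Col3a1 at -117) and in 12.4% of all windows. GGGCGG, the letters of an Sp1 site, was found in 3 of the 8 (Col1a2, Col4a2 and Col6a2) and in 32.7% of all. TTC and GAA spaced by 4 bases, the palindrome preferred by Stat6, the transcription factor that IL-4 activates, was found in 0 of the 8 and in 5.85% of all windows. These are letter matches in a short window and say nothing about binding.

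Summed over the 10 genes, the untreated KO library stood apart and the other 3 were close to each other. The sum was 322 CPM in untreated WT (95% Wilson interval 311 to 333), 314 in IL-4-treated WT (303 to 324), 148 in untreated KO (141 to 156) and 318 in IL-4-treated KO (307 to 328). Thus the KO to WT ratio of the sum was 0.461 without IL-4 and 1.01 with it. The genes were picked for low values in untreated KO, so the low sum there and the ratio of 0.461 follow from the choice. The untreated KO library held the lowest FPKM of 9 of the 10 genes, and IL-4-treated WT that of Col6a3. The highest FPKM was in untreated WT for 6 genes, in IL-4-treated WT for 2 (Col6a1 and Col6a2) and in IL-4-treated KO for 2 (Col1a1 and Col1a2). In RNA from a whole culture, fewer cells of a type and less RNA per cell cannot be told apart.

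**Figure D1:**
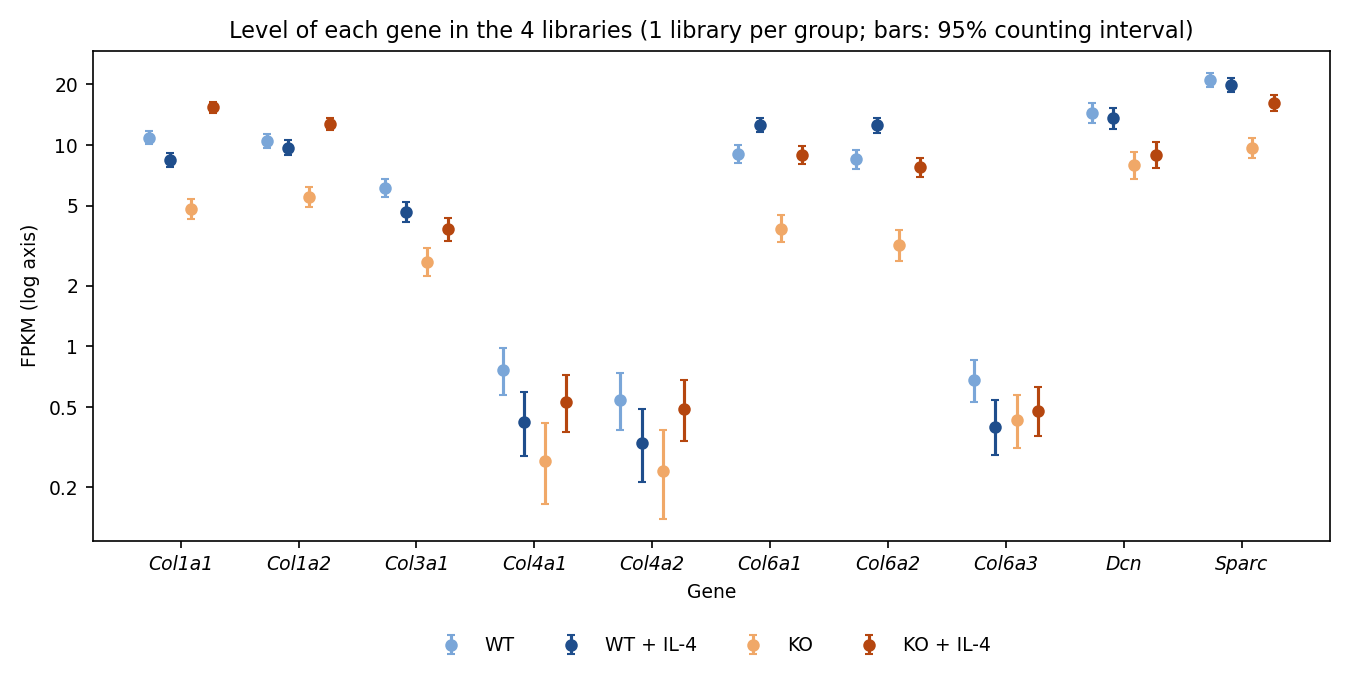
Level of each of the 10 genes in FPKM (log axis) in the 4 libraries, 1 point per library, with 95% Poisson intervals of the reads. Untreated KO is the lowest point for every gene but Col6a3, while IL-4-treated KO is the highest for Col1a1 (15.4 FPKM) and Col1a2 (12.8 FPKM). IL-4-treated KO lies below both WT libraries for Col3a1, Col6a1, Col6a2, Dcn and Sparc.

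The fibrillar chains took the largest share of the set's reads. Col1a1, the alpha1 chain of type I collagen, was at 10.9 FPKM in untreated WT, 8.46 in IL-4-treated WT, 4.81 in untreated KO and 15.4 in IL-4-treated KO. Its partner Col1a2 was at 10.5, 9.71, 5.53 and 12.8 FPKM in the same order. Col3a1, the chain of type III collagen, was at 6.13, 4.67, 2.63 and 3.82 FPKM. The type I chains therefore ran from their lowest level in untreated KO to their highest in IL-4-treated KO, and Col3a1 did not: its IL-4-treated KO value lay below both WT values.

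Of the type VI chains, Col6a1 was at 9.05 FPKM in untreated WT, 12.6 in IL-4-treated WT, 3.85 in untreated KO and 8.95 in IL-4-treated KO. Col6a2 followed it closely, at 8.48, 12.5, 3.18 and 7.77 FPKM. Col6a3, which completes the classic type VI trimer, was much lower, at 0.68, 0.40, 0.43 and 0.48 FPKM from 72, 42, 44 and 52 reads. Col6a1 and Col6a2 were highest in IL-4-treated WT, where Col6a3 had its lowest value. The counting intervals of Col6a3 overlapped among all libraries, barely so for untreated WT (0.532 to 0.856) and IL-4-treated WT (0.288 to 0.541). The basement membrane chains were near the limit of this depth. Col4a1 was at 0.76, 0.42, 0.27 and 0.53 FPKM and Col4a2 at 0.54, 0.33, 0.24 and 0.49, from 17 to 56 reads.

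Dcn was at 14.4 FPKM in untreated WT, 13.6 in IL-4-treated WT, 7.93 in untreated KO and 8.94 in IL-4-treated KO. Sparc was at 21.1, 19.9, 9.68 and 16.1 FPKM. Both WT values of Dcn lay above both KO values, with 95% counting intervals that did not overlap (12.1 at the lower end in WT, 10.3 at the upper end in KO). The genes were picked on the untreated values, so that part of the comparison lends no support. For Sparc the IL-4-treated KO value lay between the WT values and untreated KO.

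In the untreated pair, on which the genes were picked, 9 of the 10 were lower in KO by more than 1.5-fold, and 0 were higher, beside 2.16% lower and 1.86% higher of the 10849 genes with at least 40 reads in the pair. Their median log2 ratio was -1.14, against -0.01 over all those genes, and the choice fixes both figures. The ratios, on the log2(FPKM + 0.1) scale with the counting SE, ran from -1.39 ± 0.15 for Col6a2 through -1.16 ± 0.10 for Col1a1 to -0.85 ± 0.14 for Dcn. Col6a3 was just short of the fold, at -0.56 ± 0.27. Wider genes of connective tissue lay the same way in these 2 libraries. Among list genes with at least 40 reads, the counts past the fold were 4 lower and 0 higher of 7 other collagens (Col5a1, Col5a2, Col18a1 and Col24a1), 6 lower and 1 higher (Thbs1) of 15 other matrix genes, and 7 lower and 0 higher of 20 genes for collagen processing enzymes and chaperones. Of 11 genes of the TGF-beta axis, the main inducer of collagen genes, 0 were past the fold.

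The IL-4-treated pair used neither of the libraries on which the genes were picked, and it was tested gene by gene (Fisher's exact test on reads, two-sided, Benjamini-Hochberg over 15573 genes, fold above 1.5). In KO, Col1a1 was called higher, Col6a2 and Dcn were called lower, and the other 7 were not called. Over all genes tested 3.05% were called higher and 0.764% lower. The 10 genes had a median log2 ratio of -0.03, against 0.02 for all genes. With the transcript length trend removed, as described below, their median was -0.25, where that of the untreated pair was -1.14. A deficit as large as that of the untreated KO library was thus not seen across the set after IL-4. The members were spread in both directions.

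Col1a1 was higher in KO by 0.85 ± 0.08 on the log2 scale (adjusted p = 2.1e-29, Fisher's exact test), from 573 reads in WT to 1020 in KO. Col1a2 was higher by 0.39 ± 0.08 (adjusted p = 1.3e-05), short of the fold. Among the lower genes, Col6a2 differed by -0.68 ± 0.10 (adjusted p = 2.0e-10) and Dcn by -0.60 ± 0.14 (adjusted p = 7.9e-05). Col6a1 differed by -0.49 ± 0.09 (adjusted p = 2.4e-06) and Sparc by -0.30 ± 0.09 (adjusted p = 0.0047), both short of the fold. Col3a1, at -0.28 ± 0.13 (adjusted p = 0.092), Col4a1, Col4a2 and Col6a3 did not reach the threshold for p.

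These 2 libraries differed by transcript length: across 10443 genes the log2 ratio rose with length (Spearman's rho 0.518, genes not being independent). With that trend removed Col1a1 stayed called higher (0.60, adjusted p = 2.7e-14, exact binomial test) and Col6a2 lower (-0.75, adjusted p = 3.3e-12). Dcn fell just short of the fold (-0.53, adjusted p = 0.0012), while Col3a1 passed the p threshold (-0.51, adjusted p = 0.00071) without the fold. The direction of Col4a1 and Col6a3 turned, to -0.02 and -0.22. If libraries of the same condition are assumed to vary by a biological coefficient of variation of 0.1, the call of Col1a1 remained and those of Col6a2 and Dcn did not, and at 0.2 none of the 10 genes was called. The calls are therefore differences beyond counting error, and the spread among mice was not measured.

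**Figure D2:**
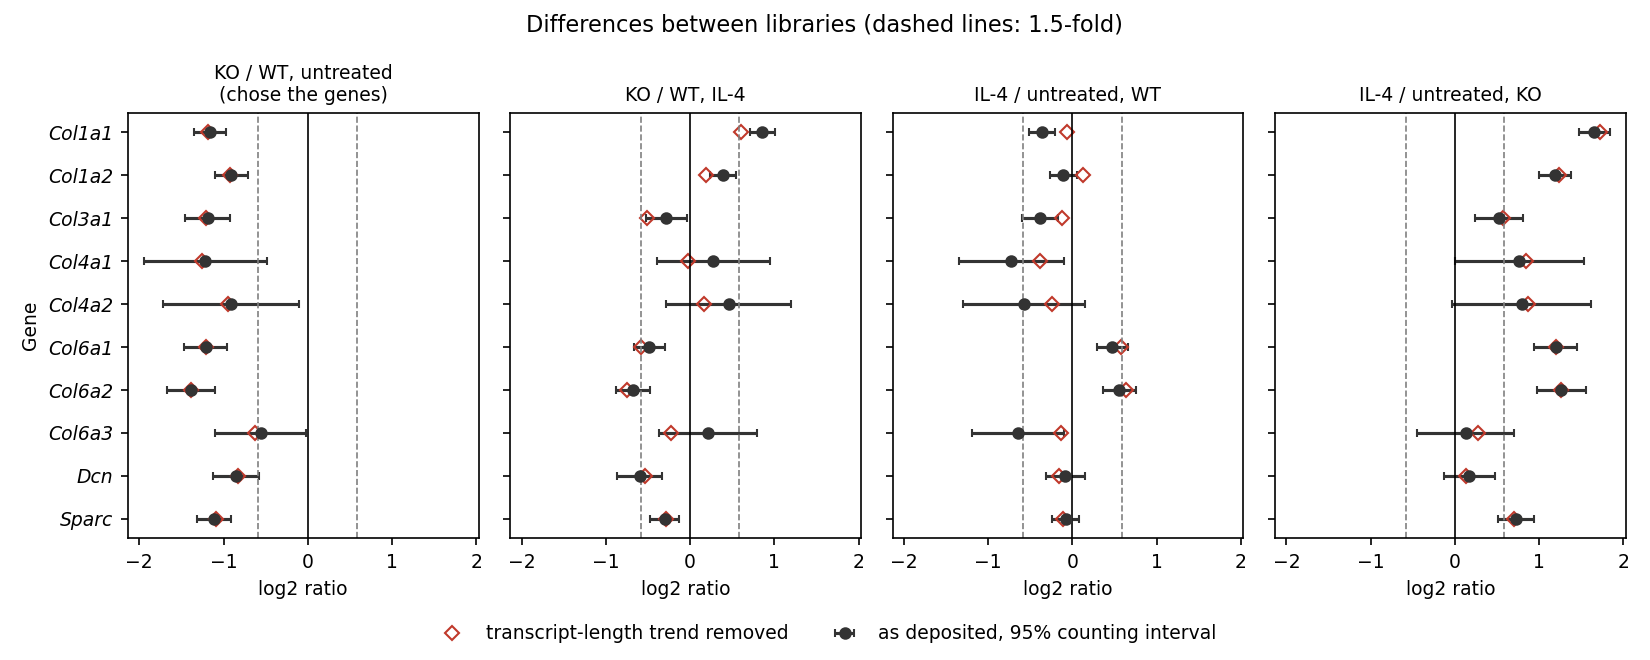
log2 ratio of FPKM for the 10 genes in 4 pairs of libraries. Filled points are the deposited values with 95% counting intervals, open diamonds the values with the transcript length trend removed, and dashed lines mark 1.5-fold. The untreated KO to WT panel, which chose the genes, lies left of 0 throughout, and in the IL-4-treated panel Col1a1 lies right of its line at 0.85 and Col6a2 left of its line at -0.68.

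Against their own untreated libraries, the genes followed IL-4 differently in WT and KO. These comparisons share the untreated libraries with the choice of the genes and are given without a test. In WT, 2 of 10 genes (Col4a1 and Col6a3) were lower with IL-4 past 1.5-fold and 0 were higher, where 11.1% and 6.69% of all genes were. Col6a1 and Col6a2 were the members above their untreated level, by 0.47 ± 0.09 and 0.56 ± 0.10 on the log2 scale, and Col1a1 was below it by -0.36 ± 0.08. With the length trend removed neither Col4a1 (-0.38) nor Col6a3 (-0.14) was past the fold and Col1a1 stood at -0.06, while Col6a2 was past it at 0.63. In KO, 7 of 10 were higher with IL-4 past 1.5-fold and 0 were lower, where 7.31% and 6.36% of all genes were. The ratios in KO were 1.66 ± 0.09 for Col1a1, 1.26 ± 0.15 for Col6a2, 1.20 ± 0.13 for Col6a1 and 1.19 ± 0.10 for Col1a2, but 0.52 ± 0.15 for Col3a1, 0.17 ± 0.15 for Dcn and 0.13 ± 0.29 for Col6a3. The starting point of these ratios is the library in which the genes were picked for being low.

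The mix of the 10 genes within a library does not depend on how many of their reads there are. Col3a1 and Col1a1 stood in nearly 1 proportion in 3 libraries: the read ratio of Col3a1 to Col1a1 was 0.527 in untreated WT, 0.517 in IL-4-treated WT and 0.511 in untreated KO. In IL-4-treated KO it was 0.232. Dcn to Col1a2 gave the same picture, with 0.492, 0.501 and 0.516 against 0.251. Sparc to Col1a2 was 1.01, 1.03 and 0.879 against 0.635. Between the untreated libraries, where the summed level differed most, the Col3a1 to Col1a1 ratio differed by -0.04 on the log2 scale (95% counting interval -0.37 to 0.28) and the Dcn to Col1a2 ratio by 0.07 (-0.27 to 0.40). The genes were picked on the untreated libraries for being low in KO, which favours steady ratios between them there, so that steadiness lends no support. Between the IL-4-treated libraries the same ratios differed by -1.15 (-1.44 to -0.87) and -0.999 (-1.31 to -0.69). The length trend in this pair was nearly equal for Col3a1 and Col1a1 (0.23 and 0.25), while it was -0.07 for Dcn and 0.20 for Col1a2.

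Chains that share a molecule gave mixed results. The Col6a1 to Col6a2 ratio was 1.14, 1.08, 1.30 and 1.23 in the order used above, and its difference between the IL-4-treated libraries, 0.20 on the log2 scale, had an interval (-0.07 to 0.47) that included 0. Col4a1 to Col4a2 was 1.44, 1.33, 1.18 and 1.11. The interval of its difference between the IL-4-treated libraries, -1.26 to 0.74, included a 2-fold lower ratio in KO but not a 2-fold higher one. For the type I chains, Col1a1 to Col1a2 was 1.19, 0.993 and 0.991 in the first 3 libraries and 1.37 in IL-4-treated KO, a difference of 0.47 (0.25 to 0.68) from IL-4-treated WT.

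As shares of the reads of the 10 genes, types I and III together took 48.3% in untreated WT (46.6 to 49.9%), 41.0% in IL-4-treated WT (39.4 to 42.6%), 49.1% in untreated KO (46.7 to 51.5%) and 57.1% in IL-4-treated KO (55.5 to 58.7%). Type VI took 23.3%, 32.4%, 21.2% and 22.0%, and Dcn 8.45%, 8.19%, 10.1% and 5.31%. The untreated libraries thus had a similar mix at 322 and 148 CPM, a likeness that the choice of the genes on these libraries favours. IL-4-treated WT was richer in type VI and IL-4-treated KO in type I, at nearly equal sums.

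**Figure D3:**
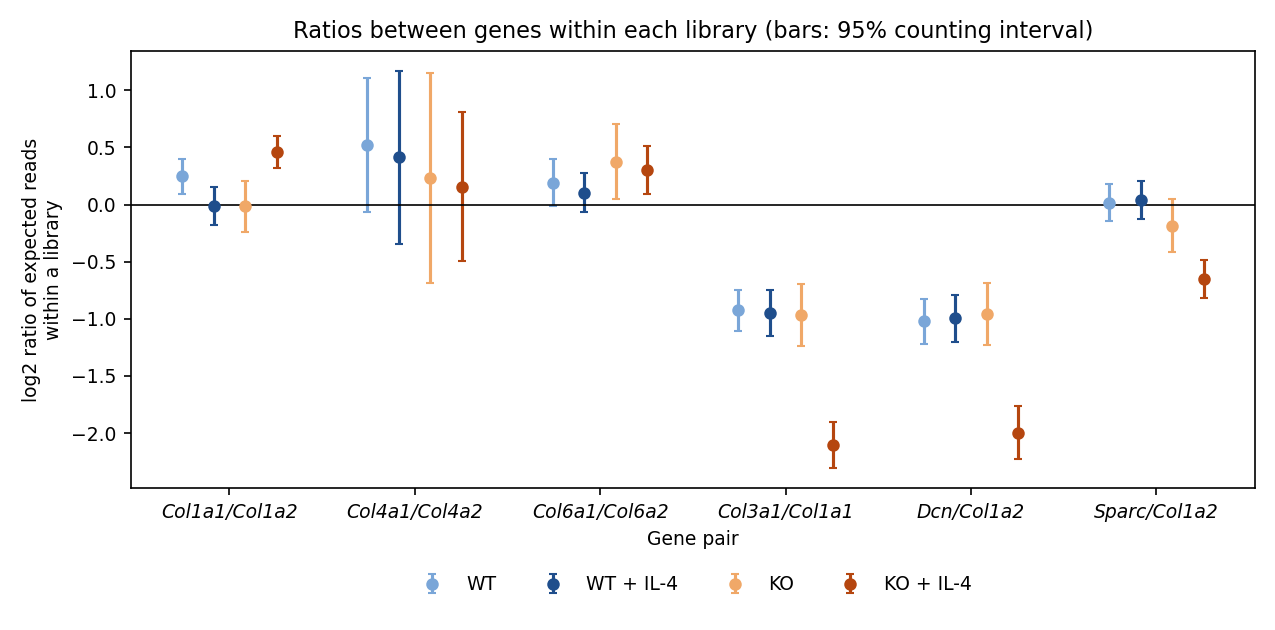
log2 ratio of expected reads between 2 of the 10 genes within each library (6 gene pairs), with 95% counting intervals. For Col3a1/Col1a1 and Dcn/Col1a2 the points of untreated WT, IL-4-treated WT and untreated KO lie together and that of IL-4-treated KO lies about 1 unit lower.

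Other collagen genes were weakly read, and those called lay on the side of Col1a1. Of 36 other collagen genes 29 were listed, 0 with a mean of 1 FPKM, and 4 were called higher and 0 lower in IL-4-treated KO against WT. Col5a1 and Col5a2, chains of the type V collagen that starts type I fibrils, were called, the former with 75, 42.5, 35 and 119 reads in the 4 libraries (log2 ratio 1.34 ± 0.26, adjusted p = 1.5e-08) and the latter with 73, 59, 44 and 115 (0.92 ± 0.23, adjusted p = 0.00015). Col12a1, a collagen that sits on the surface of fibrils, had 10, 9, 9 and 60 reads (1.72 ± 0.50, adjusted p = 2.2e-09). The fourth, Col11a1, went from 1 read to 10 and was not called with the length trend removed. Col6a5, another type VI chain, had a pattern unlike the 10 genes, with 1 and 141 reads in WT and 6 and 161 in KO before and with IL-4. Its ratio of IL-4 to untreated was 138 in WT (exact counting interval 24.4 to 5501) and 26.8 in KO (12.1 to 74.2), and its KO to WT difference with IL-4 (0.21 ± 0.17, adjusted p = 0.44) did not pass the test.

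Matrix proteins that are not collagens moved in both directions in the IL-4-treated pair, with 2 called lower and 1 higher of 37 listed. Postn (periostin), a matrix protein of activated fibroblasts, had 13, 30, 17 and 178 reads (2.44 ± 0.28, adjusted p = 1.2e-25). Fbln2 (fibulin-2), at 180, 107, 65 and 54.1 reads, was called lower (-0.90 ± 0.24, adjusted p = 0.00053), and so was Lamb1, a laminin chain of basement membranes, at 70, 73, 27 and 36 reads (-0.87 ± 0.29, adjusted p = 0.0056). With the length trend removed Nid1 was also called lower (-0.70), and is named because of that value. Spp1 (osteopontin), secreted by macrophages, lay between 958 and 1176 FPKM. Fn1 (fibronectin) was at 56.1 and 213 FPKM in untreated and IL-4-treated WT. In KO it was at 47.0 and 286 FPKM. Fn1 was thus higher with IL-4 in both genotypes, by 1.92 and 2.60 on the log2 scale, while the 10 genes in WT lay between -0.73 and 0.56.

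Of 27 genes for enzymes and chaperones that process collagen, all listed, 2 were called lower and 1 higher in the IL-4-treated pair. Lox, which cross-links collagen, had 158, 80, 101 and 144 reads (0.83 ± 0.20, adjusted p = 0.00011). Plod2, a lysyl hydroxylase, had 68, 37, 37 and 14 (-1.16 ± 0.45, adjusted p = 0.012). Serpinh1, the collagen chaperone Hsp47, had 203, 327, 140 and 207 (-0.63 ± 0.13, adjusted p = 1.1e-05), just past the fold, and just short of it (-0.58) with the length trend removed. That removal gave 1 lower and 2 higher in the list, since Pcolce, an enhancer of procollagen processing named because of this value, was then called higher (0.87, adjusted p = 0.040). The most abundant of the list, P4hb and Ppib, which serve many secreted proteins, differed by -0.12 and -0.17 and were not called.

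Of the 12 listed genes for collagen receptors and uptake 0 were called. The beta1 integrin Itgb1 differed by 0.06 (adjusted p = 0.037) and the scavenger receptor Cd36 by -0.37 (adjusted p = 2.4e-195), both short of the fold. Of the 15 genes of the TGF-beta axis 1 was called higher, Ltbp3, which binds latent TGF-beta, at 829, 635, 1026 and 1029 reads (0.72 ± 0.07, adjusted p = 3.4e-22), and 0 with the length trend removed. The ligand Tgfb1 (0.04, adjusted p = 0.39) and the receptor Tgfbr2 (0.27, adjusted p = 1.6e-07) were not called.

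Markers of cell types that make these proteins were read at a low level. Of 16 fibroblast markers 15 were listed and 4 had a mean of 1 FPKM, and the summed FPKM was 15.2 in untreated WT, 12.5 in IL-4-treated WT, 10.3 in untreated KO and 10.96 in IL-4-treated KO. Pdgfra, a receptor of fibroblasts, led them with 286, 187, 174 and 159 reads. Tcf21 was not listed in any library, and Lum, Dpt, Thy1, Col14a1, Mfap5 and Pi16 had 0 to 6 reads in each. Dcn was thus well above these markers, at 7.93 to 14.4 FPKM where Lum, a proteoglycan of the same family, was at 0 to 0.09.

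The summed FPKM of the fibroblast list was lowest in untreated KO, as was that of the 10 genes. In KO the fibroblast sum was 1.07 times as high with IL-4 as without, where that of the 10 genes was 1.95 times as high. The 10 genes were picked with untreated KO low, which is the starting point of the 1.95, so this contrast lends no support. Of the 4 markers with a mean of 1 FPKM, Pdgfra, Serping1 and Loxl1 were lowest in IL-4-treated KO and Cdh11 in untreated KO. Col5a1, a collagen in the list, was at 0.37 FPKM in untreated KO and 1.27 in IL-4-treated KO. That gap is wider than the gap between the sums of the list in these libraries, so their order rests on Col5a1. The log2 KO to WT ratio of Pdgfra was -0.69 without IL-4 and -0.20 (adjusted p = 0.46) with it, or -0.49 (adjusted p = 0.017, exact binomial test) with the length trend removed, short of the fold. In the untreated pair 4 of 5 fibroblast, 2 of 2 mesothelial and 2 of 3 mural markers with at least 40 reads were lower in KO past 1.5-fold, and 0 were higher. Of all genes with as many reads 2.16% were lower and 1.86% higher. Of the 4 fibroblast markers, 3 stayed past the fold with the length trend removed, and Col5a1 and Loxl1 are also counted in lists above. Past the fold were 0 of 2 endothelial markers, 1 of 10 macrophage markers (lower), and 1 lower and 1 higher of 7 other leukocyte markers. In the IL-4-treated pair 3 fibroblast markers were called higher and 0 lower: Col5a1, Mmp2, a gelatinase, with 21, 8, 8 and 26 reads (adjusted p = 0.012), and Pdgfrb with 14, 1, 7 and 10 reads (adjusted p = 0.033). With the length trend removed Pdgfrb was not called and Cdh11 was called lower (-0.59), the latter named because of that value. Serping1, the next most abundant of the list, differed by -0.54 (adjusted p = 0.078).

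Mesothelial markers had their highest summed level in IL-4-treated WT, mainly through Krt8 and Krt18. Of 12, 11 were listed, 4 with a mean of 1 FPKM, and Muc16 in no library. Their summed FPKM was 8.84 in untreated WT, 15.9 in IL-4-treated WT, 4.23 in untreated KO and 8.88 in IL-4-treated KO. Without those 2 keratins, left out after their values were seen, the other 9 summed to 7.05, 7.19, 3.66 and 4.62 FPKM. In the IL-4-treated pair 4 were called lower in KO and 1 higher, with the same counts after the length trend was removed. Wt1, a transcription factor of mesothelium, had 68, 65, 31 and 23 reads (-1.35 ± 0.35, adjusted p = 0.00011), and Lrrn4 had 32, 68, 12 and 29 (-1.11 ± 0.32, adjusted p = 0.00097). The keratins Krt8 and Krt18 had 20, 74, 10 and 38 reads and 12, 79, 1 and 36 reads, and were called lower with adjusted p of 0.0086 and 0.0011. Msln (mesothelin) had 12, 2, 6 and 13 reads and was called higher (adjusted p = 0.023).

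Mural markers, of smooth muscle and pericytes, had their highest sum in IL-4-treated KO, as Col1a1 did. It was 7.32, 7.81, 4.75 and 10.97 FPKM in the 4 libraries. All 9 were listed, 3 with a mean of 1 FPKM, and 1 was called higher and 0 lower in the IL-4-treated pair. This was Acta2, the smooth muscle actin also made by myofibroblasts, with 77.2, 93.2, 47.1 and 158 reads (0.77 ± 0.19, adjusted p = 0.00023). Des (desmin) differed by -0.38 (adjusted p = 0.24), and Myh11, Rgs5 and Cspg4 had 0 or 1 read in each library. Endothelial markers were lowest in IL-4-treated WT: their summed FPKM was 16.3, 11.7, 15.8 and 17.2, with Vwf as the main gene, 5 of the 11 (Tek, Emcn, Cldn5, Robo4 and Sox17) in no library, and Cdh5 at 2 to 5 reads. Vwf was called higher in IL-4-treated KO (0.61, adjusted p = 2.5e-24) and not with the length trend removed (0.20), and Kdr was not called.

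Among the 10 macrophage markers 1 was called lower and 1 higher in the IL-4-treated pair. The former was Lyz2, the lysozyme gene into which LysM-Cre is inserted, at 11289, 10811, 5193 and 4761 FPKM, and the latter was Mertk (0.60, adjusted p = 2.5e-21), which was not called with the length trend removed. Among 20 markers of other leukocytes, 16 of them listed, the mast cell protease Cpa3 was called higher, with 19, 15, 40 and 36 reads (adjusted p = 0.018). S100a8, a neutrophil and monocyte protein and the most abundant of the list, had 35, 21, 21 and 30 reads (adjusted p = 0.48), and the mast cell tryptase Tpsb2 had 30, 19, 37 and 23 (adjusted p = 0.78). S100a9, Ly6g, Camp and Epx were not listed in any library, and the summed FPKM of that list was 22.7, 15.5, 20.2 and 18.9. The sums of the fibroblast, mesothelial and mural markers were thus lowest in untreated KO, as was that of the 10 genes. Between untreated and IL-4-treated KO, that order rested on Col5a1 in the fibroblast list. In the mesothelial list it rested on the keratins Krt8, Krt18 and Krt19 together. These marker sums ranked the other libraries differently, and their part in the differences was not tested. Macrophage expression and expression by carried-over cells cannot be told apart from these libraries alone.

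**Figure D4:**
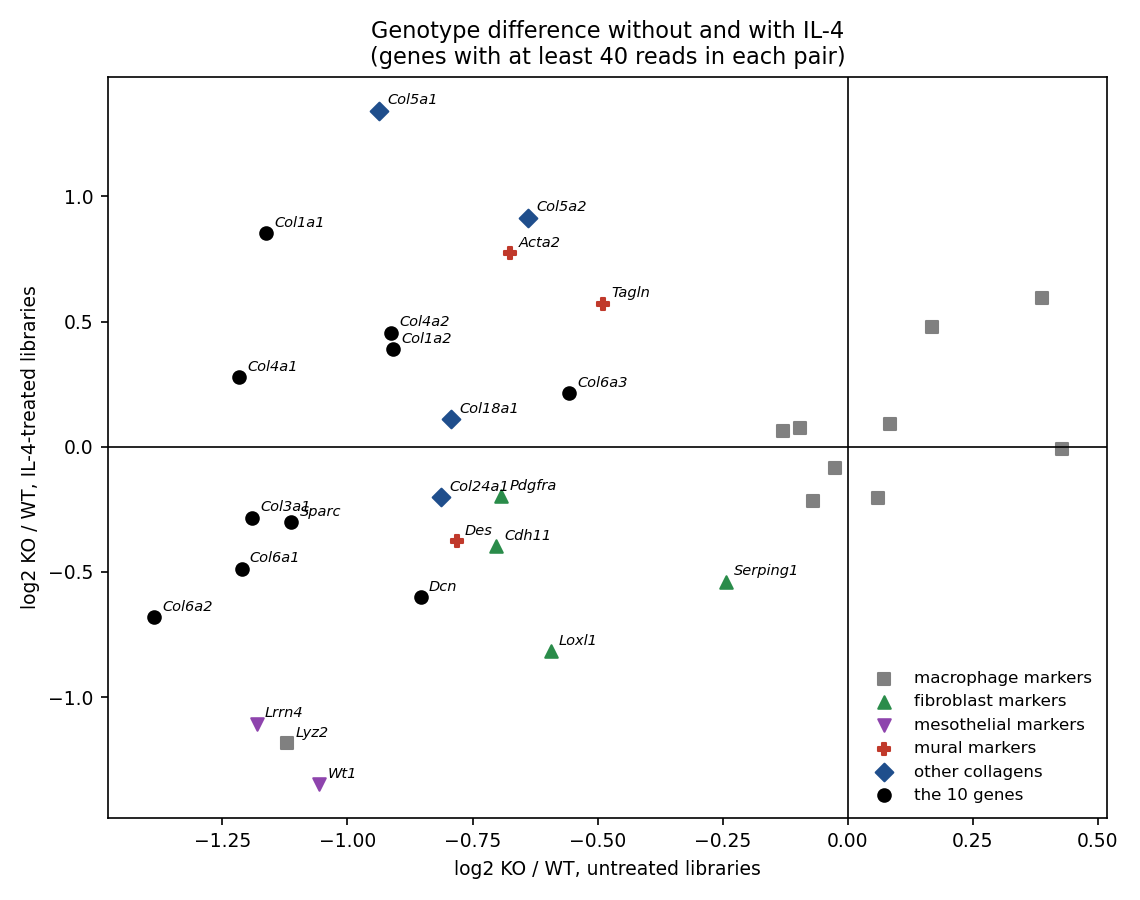
log2 KO to WT ratio in the untreated libraries (x axis) and in the IL-4-treated libraries (y axis) for genes with at least 40 reads in each pair, as a description. All 10 genes (black) lie left of 0, as do the fibroblast, mesothelial and mural markers and other collagens shown, and they spread along the y axis from Col5a1 at 1.34 to Wt1 at -1.35.

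The genes whose profile over the 4 libraries lay nearest to that of Col1a1, Col1a2 and Col3a1 were sought over the 10847 genes averaging 20 reads or more, by the root mean square distance of centred log2 values to the median of the 3. The nearest were Prdm16 (0.0415), Zfp689 (0.146), Nfib (0.151), Psd3 (0.163), Tipin (0.176) and Rcn3 (0.180), against a median of 0.472 for all genes. Prdm16, a transcription factor, had 27, 22, 9 and 32 reads, and Rcn3, a calcium-binding protein of the endoplasmic reticulum, had 68, 75, 41 and 72. On the same measure Col1a2 lay at 0.0368, Col1a1 at 0.191, Col3a1 at 0.332 and Col6a2 at 0.453. The median profile was thus close to that of Col1a2, and the other genes that define it lay farther away than all 6 genes named. With 4 libraries and so few reads, such nearness is a description of these libraries.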

How the data were processed

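RNA of 4 mouse macrophage libraries was sequenced on a HiSeq instrument. The authors used Bowtie to align reads against the mouse build GRCm38 (mm10) and RSEM to quantify genes. Tool versions are not given in the sources used here, and whether strand was used is not stated. The deposited expected counts are estimated reads per gene, which need not be whole (22.2% to 22.8% were not, but 0 of the counts of the 10 genes), and were rounded for tests. The deposited FPKM values are these counts per transcript length and library total, with 2 decimals. Of 16403 gene IDs, 16365 matched a symbol in RefSeq (GRCm38.p6).

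Groups follow the labelled genotype and treatment. The members, gene lists and tests were chosen with earlier results of these data known. log2 ratios are differences of log2(FPKM + 0.1), which understates changes of low genes, with a counting SE from the reciprocals of the reads plus 0.5 and 95% normal intervals. The test was Fisher's exact test against library totals, with calls needing a fold over 1.5 and an adjusted p below 0.05, the thresholds of the study's methods. Pairs without a test count genes past that fold with at least 40 reads. For the length trend, each library's deviation was smoothed over log2 transcript length by lowess (fraction 0.3), using genes of at least 200 bases and a mean of 1 FPKM, and the curve was subtracted. The procedure was checked on simulated counts. Alternatives were pseudocounts of 0.01 and 1, CPM, TMM (edgeR 4.0.16), DESeq2 1.42.0 size factors, a fold of 2, a minimum of 1 FPKM or 200 reads, and edgeR's exact test at an assumed coefficient of variation of 0.1, 0.2 or 0.4.

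Named were the 10 genes, Trim24, the 2 most abundant genes and those called in the IL-4-treated pair of each list, and the 6 nearest profiles. Other genes are named where a count is small, after their values were seen. Python 3.11.15, SciPy 1.17.1 and R 4.3.3 were used.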

Additional observations from a re-analysis of the deposited data

Results flagged for a closer look

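For 2 of the 10 genes the ratio of IL-4 to untreated had opposite signs in WT and KO, with 95% counting intervals that left out 0. For Col1a1 it was -0.36 in WT and 1.66 in KO, a difference of 2.02 on the log2 scale, and with the length trend removed -0.06 and 1.72. For Col3a1 it was -0.39 and 0.52, a difference of 0.91, and with the trend removed -0.12 and 0.58. With the trend removed, the WT values of both genes lay within their counting error of 0 (SE 0.08 for Col1a1 and 0.11 for Col3a1). Neither gene would then be flagged. The difference between WT and KO was not tested, since each group is 1 library and the untreated libraries are those on which the genes were picked.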

How the results depend on the processing

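In the IL-4-treated pair, the 2 members called lower became 1 with a pseudocount of 1 FPKM and 1 with the length trend removed, and 0 at a fold of 2 or at an assumed coefficient of variation of 0.1, 0.2 or 0.4. The 1 member called higher became 0 at a fold of 2 and at 0.2 or 0.4. The direction turned with the length trend removed for Col4a1 (-0.020) and Col6a3 (-0.22), and Dcn fell short of the fold there (-0.53) and with a pseudocount of 1 (-0.55). For IL-4 in WT, the 2 lower members became 0 with a pseudocount of 1, without the length trend or at a fold of 2, and the 0 higher became 1 with TMM, DESeq2 size factors or without the length trend. For IL-4 in KO, the 7 higher became 4 at a fold of 2. The untreated pair gave 6 to 10 lower members. Of the 240 values of single members under alternatives (60 a pair), 3 turned direction, the 2 above and Col1a2 for IL-4 in WT (-0.11 to 0.12), all with the length trend removed. Of all genes, the share called in the IL-4-treated pair went from 3.81% to 2.02% without the length trend and 1.10% at a fold of 2. The shares past the fold went from 4.02% to 0.940% (untreated pair), 17.8% to 5.87% (IL-4 in WT) and 13.7% to 5.10% (IL-4 in KO) at a fold of 2, and in the untreated pair to 1.21% among genes with at least 200 reads. At an unadjusted p under 0.05, 4442 of 15573 genes passed in the IL-4-treated pair. No library could be left out with 1 per group. No paired analysis was possible because each group is 1 library and the labels give no replicate numbers. Depth limits Col4a1, Col4a2 and Col6a3, with 17 to 72 reads each.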
